A study of Mus musculus with 25 samples.

Results

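The 8 genes described here code for proteins of histamine, leukotriene and prostaglandin signalling, measured by RNA sequencing of mouse T cells. They are the histamine-forming enzyme Hdc, the histamine receptor Hrh4, the leukotriene genes Alox5ap, Cysltr1 and Ltb4r1, the prostaglandin receptors Ptger2 and Ptger4, and the lipid-activated nuclear receptor Pparg. They were chosen from 22985 gene symbols by name, with the difference between resting double-deficient and normal regulatory T cells already known. That difference is therefore given as a description, without a test.

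Histamine, leukotrienes and prostaglandins are small lipid or amine mediators that cells release locally and sense through G protein-coupled receptors. Histamine is made from histidine by a decarboxylase. Leukotrienes and prostaglandins are made from arachidonic acid, by lipoxygenase and cyclooxygenase pathways. Mast cells, basophils, eosinophils and other myeloid cells are the classical sources of histamine and leukotrienes. T cells are known mainly as cells that respond to these mediators, and prostaglandin E2 acts on them through receptors coupled to cyclic AMP.

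All cells came from spleen and lymph node of C57BL/6 mice. Treg are regulatory T cells and Tconv are conventional T cells. p65KO and c-RelKO cells lack p65 or c-Rel, both members of the NF-kB family of transcription factors, and DKO cells lack both. Among resting cells, WT Treg had 4 libraries, p65KO Treg 3, and c-RelKO Treg, DKO Treg and WT Tconv 2 each. Stimulation lasted 3 h and used antibodies to CD3 and CD28, at 2 µg/ml, together with IL-2. Stimulated WT Treg, WT Tconv and DKO Treg had 2 libraries each, and the p65KO and c-RelKO Treg had 1 each. Another 4 libraries of stimulated cells, treated with the cell-permeable recombinase TAT-Cre, held a WT Tconv control, a WT Treg control and Treg libraries labelled FoxP3 del and NFkB del. The labels used here give no Cre driver, age, pooling or number of mice. The p-values thus measure only how far these samples spread, and that spread may be partly technical.

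Levels are in FPKM, fragments per kilobase of transcript scaled to the mapped fragments of the library, so levels of different genes can be set side by side. The depth of a library, worked out from the confidence bounds, was 15.4 to 52.8 M fragments. Library numbers in the labels form 4 runs, and libraries of the same run are compared directly wherever a run holds both groups. T cell markers summed to 2113 to 3818 FPKM in the 21 libraries outside the TAT-Cre set. Foxp3, which defines Treg, was 129 to 351 FPKM in WT Treg, 8.01 and 21.2 in DKO Treg at rest, 6.34 and 8.31 in those stimulated, and 0.542 to 0.927 in Tconv. The defining gene was thus low in the DKO cells that the labels call Treg. For the list of 5 Treg markers, Foxp3 included, the median difference of DKO from WT Treg in log2(FPKM + 1) was -1.02 at rest. It was -0.89 with stimulation, where limma called 2 of the 5 lower and none higher. In run 3 the markers summed to 1356 FPKM in resting DKO Treg and 2531 in resting WT Treg, and in run 4 to 1385 and 2530. WT Treg 1 had 882.7 FPKM and WT Treg 2 had 2291. Resting WT Tconv had 255.5 and 275.3 FPKM. Stimulated DKO Treg had 2658 and 3195 FPKM and stimulated WT Treg 2665 and 2679. Of the 21 libraries, Il2ra and Ctla4 were highest in stimulated DKO Treg, and Ikzf2 and Tnfrsf18 in p65KO Treg. Rel, which codes for c-Rel, was 1.76 to 2.23 FPKM in c-RelKO and DKO libraries against 27.5 (WT Treg 1) to 271 in resting WT Treg, whereas Rela, which codes for p65, kept 56.3 to 107 FPKM in p65KO and DKO libraries against 64.9 to 130 in resting WT Treg. A gene-level value of Rela does not show whether only part of the gene was removed. Markers of other cells stood out in several libraries. WT Treg 1 had 81.5 FPKM of monocyte, macrophage or dendritic cell markers, p65KO Treg 3 had 764 of neutrophil markers, and c-RelKO Treg 2 had 1884 of neutrophil, 215 of B cell and 17720 of platelet or erythroid markers. Platelet or erythroid markers were also 517.9 FPKM in WT Treg 2 and 349.8 FPKM in DKO Treg stim 2.

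Hdc (chr2:126419404-126444401, mm9) codes for histidine decarboxylase, the enzyme that makes histamine. In resting WT Treg it was 0.208, 0.894, 1.09 and 2.18 FPKM, and in resting DKO Treg it was 103 and 53.6 FPKM. The DKO libraries stood far above all WT libraries and did not overlap them. Within runs the level in DKO was 93.8 times that of WT in run 3 and 24.6 times in run 4. After stimulation Hdc was 112 and 68.6 FPKM in DKO Treg against 0.84 and 2.68 FPKM in WT Treg. In bulk RNA, more cells that carry a transcript and more transcript per cell cannot be told apart.

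Hrh4 (chr18:13165499-13181391, mm9), the histamine receptor found mainly on blood cells, was likewise highest in DKO Treg. It was 0.107 to 1.40 FPKM in the 4 resting WT Treg libraries and 44.5 and 49.0 FPKM in the 2 resting DKO libraries. Stimulated DKO Treg had 28.7 and 32.3 FPKM, where stimulated WT Treg had 0.354 and 0.295 FPKM. Both DKO groups lay above all 17 other libraries, whose highest value was 2.24 FPKM in p65KO Treg 1. Of the 5 genes that were above all other libraries in DKO Treg, Hrh4 had the closest replicates, with a mean of 46.8 ± 3.22 FPKM (SD, n = 2) at rest. Hdc had 78.1 ± 34.7, and its 4 DKO libraries overlapped between rest and stimulation.

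**Figure D1:**
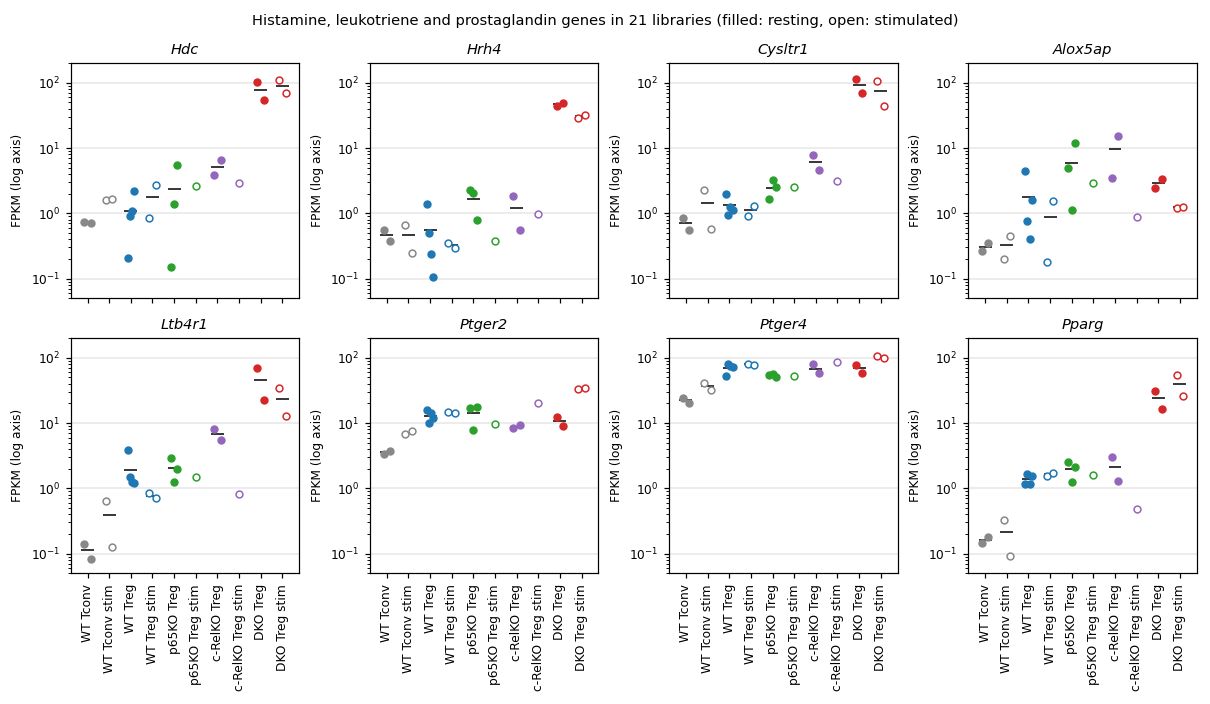
FPKM on a log axis for each of the 8 genes in 21 libraries, grouped along the horizontal axis. Filled points are resting libraries, open points are stimulated ones, and short lines are means of groups with at least 2 libraries. Hdc, Hrh4, Cysltr1, Ltb4r1 and Pparg are highest in the 4 DKO libraries, whereas Ptger4 lies between 51.5 and 108 FPKM in every Treg group.

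Cysltr1 (chrX:103771856-103798801, mm9) codes for a receptor of the cysteinyl leukotrienes. It stood at 1.95, 0.958, 1.26 and 1.13 FPKM in resting WT Treg and at 113 and 69.1 FPKM in resting DKO Treg. Stimulated WT Treg had 0.901 and 1.31 FPKM and stimulated DKO Treg 106 and 43.3 FPKM. It had the highest mean of the 8 genes in resting DKO Treg, at 90.8 ± 30.7 FPKM (SD, n = 2). A predicted gene, Gm5127, overlaps the Cysltr1 locus in the deposited annotation, and the sources used here do not say how reads were divided between the entries.

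Ltb4r1 (chr14:56384799-56387329, mm9) codes for the high-affinity receptor of leukotriene B4. Resting WT Treg had 3.81, 1.5, 1.25 and 1.20 FPKM, with WT Treg 1 apart from the rest, and resting DKO Treg had 69.4 and 22.4 FPKM. Stimulated DKO Treg had 33.8 and 12.6 FPKM against 0.845 and 0.704 FPKM in stimulated WT Treg. In both states the DKO library of run 3 was higher than that of run 4, as it was for Hdc, Cysltr1 and Pparg. The lower-affinity receptor Ltb4r2 was at 0 to 0.126 FPKM in all 21 libraries.

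Alox5ap (chr5:150076634-150099623, mm9) codes for the protein that presents arachidonic acid to 5-lipoxygenase. Its levels were 4.43, 0.774, 0.409 and 1.62 FPKM in resting WT Treg and 2.48 and 3.36 FPKM in resting DKO Treg, so the groups overlapped. Stimulated libraries had 0.183 and 1.55 FPKM in WT Treg and 1.21 and 1.26 FPKM in DKO Treg, again with overlap. The highest values were 15.5 FPKM in c-RelKO Treg 2 and 11.8 FPKM in p65KO Treg 3. These libraries also had the highest sums of the 10 neutrophil markers found, 1884 and 764 FPKM, where the other 19 libraries had 1.15 to 107 FPKM. The part of these other cells in the Alox5ap level was not tested.

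The prostaglandin E2 receptors Ptger2 and Ptger4 overlapped between resting DKO and WT Treg. Ptger2 (chr14:45607786-45623495, mm9), which signals through cyclic AMP, was 15.8, 9.90, 14.4 and 12.1 FPKM in resting WT Treg and 12.3 and 9.15 FPKM in resting DKO Treg. After stimulation it was 33.5 and 34.2 FPKM in DKO Treg and 14.8 and 14.3 FPKM in WT Treg, without overlap. Ptger4 (chr15:5183404-5193831, mm9), also coupled to cyclic AMP, was 52.5, 79.9, 74.6 and 73.2 FPKM in resting WT Treg and 78.6 and 58.6 FPKM in resting DKO Treg. It reached 107.5 and 97.8 FPKM in stimulated DKO Treg against 79.9 and 78.2 FPKM in stimulated WT Treg. Of the 8 genes, Ptger4 had the highest level in each of the 17 libraries that were not DKO.

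Pparg (chr6:115311239-115440419, mm9) codes for a nuclear receptor that binds fatty acids and prostaglandin derivatives. It was 1.16 to 1.65 FPKM in the 4 resting WT Treg libraries and 31.3 and 16.3 FPKM in resting DKO Treg. Stimulated DKO Treg had 54.4 and 26.03 FPKM against 1.55 and 1.73 FPKM in stimulated WT Treg. In both runs the stimulated DKO library was above the resting one, by a ratio of 1.74 and 1.59.

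At rest, 5 of the 8 genes thus had both DKO libraries above all 4 WT libraries: Hdc, Hrh4, Cysltr1, Ltb4r1 and Pparg. Of all 11532 genes tested, 25.7% did so, and since the genes were chosen on this contrast nothing is read from their share. On the scale of log2(FPKM + 1), which understates changes of low genes, the differences were 5.25 for Hdc, 5.0 for Hrh4, 5.28 for Cysltr1, 3.87 for Ltb4r1 and 3.32 for Pparg. They were 0.67 for Alox5ap, -0.26 for Ptger2 and -0.03 for Ptger4.

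The stimulated libraries are other libraries of the same genotypes, and the labels used here do not say whether their cells came from other mice than the resting ones. There, limma called 6 of the 8 genes higher in DKO than in WT Treg at a Benjamini-Hochberg adjusted p under 0.05 and none lower, where 16.6% of all genes were called higher and 16.2% lower. Hdc rose by 5.09 ± 0.64 (log2 difference ± SE, limma adjusted p = 7.4e-05, n = 2 and 2), Cysltr1 by 5.04 ± 0.43 (adjusted p = 3.2e-06) and Hrh4 by 4.57 ± 0.37 (adjusted p = 2.2e-06). Pparg rose by 3.88 ± 0.36 (limma adjusted p = 7.4e-06), Ltb4r1 by 3.62 ± 0.53 (adjusted p = 0.00021) and Ptger2 by 1.17 ± 0.30 (adjusted p = 0.0088). The call of Ptger2 was lost without WT Treg stim 1 (limma adjusted p = 0.05004) or without DKO Treg stim 2 (adjusted p = 0.0533). Ptger4 (0.37 ± 0.21, limma adjusted p = 0.204) was not called but was with the run as a block (adjusted p = 0.0377), where 7230 of all 11532 genes were. Alox5ap was not called (0.36 ± 0.77, limma adjusted p = 0.761). Because the resting difference was known when the genes were chosen, these calls are not independent evidence of a direction.

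**Figure D2:**
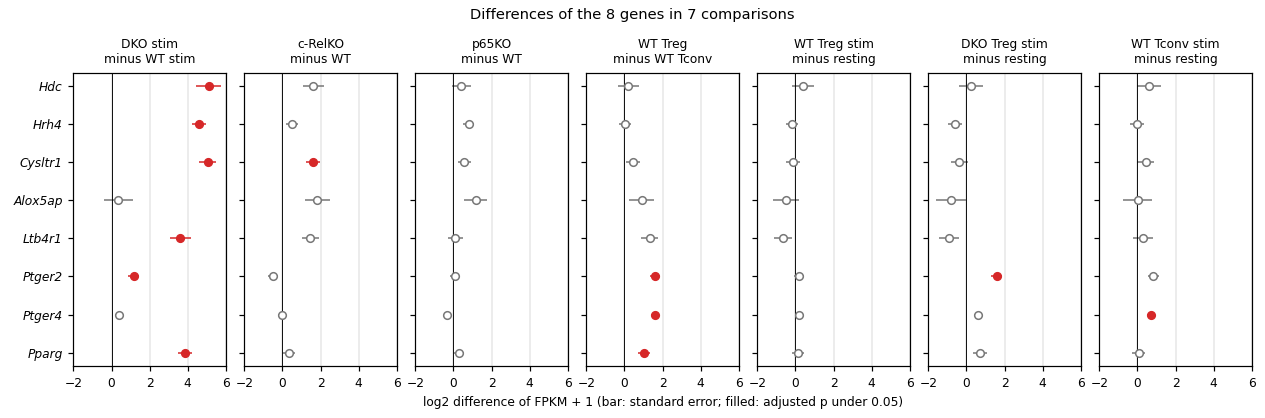
Log2 differences of FPKM + 1 for the 8 genes in 7 comparisons, with bars for standard errors and filled points for limma adjusted p under 0.05. In stimulated DKO against WT Treg 6 points are filled and lie between 1.17 and 5.09. In single-deficient Treg only Cysltr1 in c-RelKO, at 1.61, is filled.

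Levels of mast cell or basophil markers were set beside Hdc, since those cells make histamine. The 11 markers summed to 0.839 to 4.92 FPKM in resting WT Treg and to more in DKO Treg, at 7.77 and 16.9 FPKM at rest and 10.2 and 17.6 FPKM with stimulation. All 4 DKO sums were thus above those of the resting WT Treg and of the stimulated ones, whose highest was 5.97 FPKM. The highest sum of the 21 libraries, 19.8 FPKM, was in p65KO Treg 3, where Hdc was 5.57 FPKM.

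Within that list Kit, a growth factor receptor, was 5.33 and 5.95 FPKM in resting DKO Treg and 6.96 and 7.78 FPKM in stimulated DKO Treg. It was 0.613 to 1.94 FPKM in resting WT Treg and 1.51 and 2.91 FPKM in stimulated WT Treg. Resting p65KO Treg had 0.324 to 1.65 FPKM and resting c-RelKO Treg 3.84 and 6.95 FPKM. The WT Treg control of the TAT-Cre set, at 15.2 FPKM, was above all DKO libraries. The basophil protease Mcpt8 was 1.31, 5.70, 1.71 and 5.08 FPKM in DKO Treg 1, DKO Treg 2, DKO Treg stim 1 and DKO Treg stim 2. It was 0 in WT Treg 1, 2 and 3, 1.18 FPKM in WT Treg 4 and 9.53 FPKM in p65KO Treg 3. The basophil protease Prss34 was 0.767, 4.48, 1.07 and 3.88 FPKM in the same 4 DKO libraries and at most 1.34 FPKM in resting WT Treg. Cpa3, Fcer1a and Ms4a2 were at most 0.83, 0.283 and 0.376 FPKM in the 21 libraries, and Tpsb2 and Tpsab1 were at 0 in 20 of them. Of the 3 genes of the list that could be tested, limma called 1 higher in stimulated DKO than in stimulated WT Treg, where 16.6% of all genes were called higher. The part of mast cells or basophils in the Hdc level was not tested.

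Eosinophil markers were highest in the DKO libraries of run 4. The 7 markers summed to 142 FPKM in DKO Treg 2 and 59.9 in DKO Treg stim 2, with Prg2, a granule protein, at 77.5 and 30.5 FPKM. In run 3 the sums were 6.60 FPKM in DKO Treg 1 and 5.48 in DKO Treg stim 1, against 1.40 and 1.19 FPKM in the WT Treg libraries of that run. Prg2 was 0.574 and 0.0776 FPKM in those DKO libraries, and the chemokine receptor Ccr3 had its highest level of the 21 libraries, 5.26 FPKM, in DKO Treg 1. In each state the DKO library of run 3 had the higher levels of Hdc, Cysltr1, Ltb4r1 and Pparg and the lower eosinophil sum. Hrh4 went the other way. It was 44.5 FPKM in run 3 and 49.0 FPKM in run 4 at rest, and 28.7 and 32.3 FPKM with stimulation. The part of these cells in the levels was not tested.

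**Figure D3:**
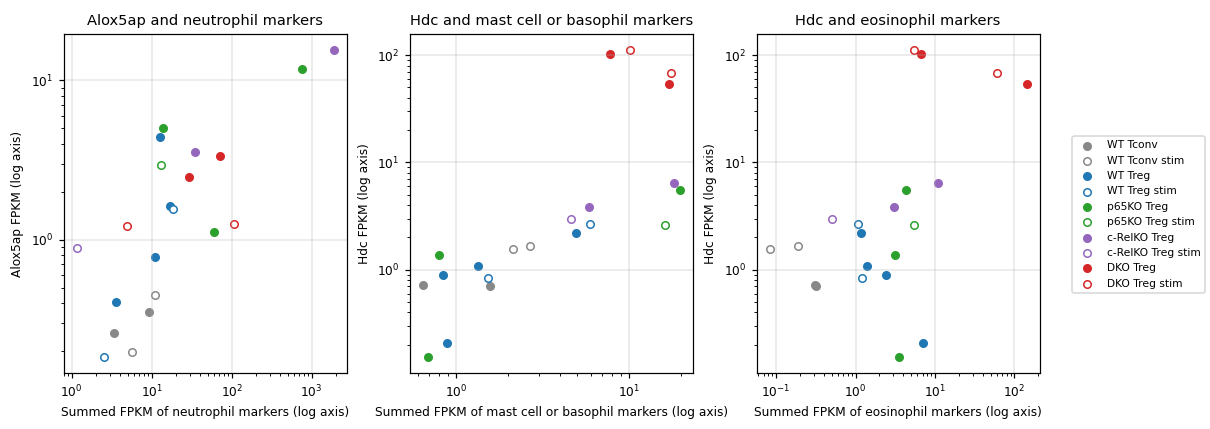
Alox5ap against the summed neutrophil markers, and Hdc against the summed mast cell or basophil and eosinophil markers, in FPKM on log axes, 1 point per library in 21 libraries (filled resting, open stimulated). The highest Alox5ap points, 15.5 and 11.8 FPKM, are the libraries with 1884 and 764 FPKM of neutrophil markers. The 4 DKO points lie at 53.6 to 112 FPKM of Hdc, with mast cell or basophil sums of 7.77 to 17.6 FPKM and eosinophil sums of 5.48 to 142 FPKM.

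RefSeq promoter sequence was looked up because 5 of the genes were high in the same libraries, and 5 of the 8 genes matched in that table (GRCm38.p6). Shown are the 250 bases before the start of Hdc and Ltb4r1, both high in DKO Treg, and of Ptger2, which was not at rest, each 5′ to 3′ on the gene's strand. Capitals mark a match on either strand to 1 of 6 motifs: the kappa-B consensus of NF-kB, GATAA as bound by GATA factors, TGANTCA as bound by AP-1, TTCNNNGAA as bound by STAT factors, TATAAA of the TATA box, and GGGCGG as bound by Sp1. The Hdc window is chr2:126618679-126618928 (minus strand), that of Ltb4r1 is chr14:55765712-55765961 (plus) and that of Ptger2 is chr14:44987861-44988110 (plus).
Hdc: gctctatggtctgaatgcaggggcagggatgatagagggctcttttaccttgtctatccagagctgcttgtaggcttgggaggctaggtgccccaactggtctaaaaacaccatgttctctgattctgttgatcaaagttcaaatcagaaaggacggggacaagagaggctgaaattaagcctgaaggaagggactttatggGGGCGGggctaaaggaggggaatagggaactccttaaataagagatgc
Ltb4r1: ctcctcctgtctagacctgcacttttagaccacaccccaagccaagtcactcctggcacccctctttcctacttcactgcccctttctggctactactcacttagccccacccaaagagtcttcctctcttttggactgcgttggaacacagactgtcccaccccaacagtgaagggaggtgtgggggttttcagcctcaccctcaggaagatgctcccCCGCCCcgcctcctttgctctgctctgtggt
Ptger2: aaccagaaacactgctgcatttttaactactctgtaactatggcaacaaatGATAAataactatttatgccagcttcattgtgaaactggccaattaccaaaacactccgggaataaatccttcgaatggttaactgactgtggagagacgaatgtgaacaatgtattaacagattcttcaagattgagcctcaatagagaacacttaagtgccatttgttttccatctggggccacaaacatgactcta
Hdc and Ltb4r1 each held 1 GGGCGG, 48 and 31 bases before the start counted from the first letter of the match as printed, and Ptger2 held 1 GATAA at 199. No marked matches overlapped in these 3 windows. Of 32851 RefSeq promoter windows of the same length, 32.7% held GGGCGG and 22.6% held GATAA. The kappa-B consensus (3.9% of all windows), TGANTCA (6.75%) and TTCNNNGAA (7.02%) had no match in these 3 windows, in that of Ptger4 or in the 3 windows of Pparg. TATAAA (12.4% of windows) matched once, in the second of the Pparg windows. These matches describe letters only.

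With c-Rel alone missing, the levels of Hdc, Hrh4, Cysltr1, Ltb4r1 and Pparg were far below those of DKO Treg. Cysltr1 was 7.80 and 4.55 FPKM in resting c-RelKO Treg, above the 0.958 to 1.95 FPKM of WT Treg without overlap. It rose by 1.61 ± 0.37 (log2 difference ± SE, limma adjusted p = 0.0143, n = 2 and 4). This was the 1 of 8 genes called higher, and none was called lower, where 1.62% of all genes were called higher and 8.98% lower (187 and 1036, or 389 and 696 with size factors). Without c-RelKO Treg 1 the difference was 1.27 and the call was lost (limma adjusted p = 0.185), as it was in a fit of the 2 groups alone (adjusted p = 0.0807). Without WT Treg 1, p65KO Treg 3 and c-RelKO Treg 2, resting libraries with myeloid or neutrophil markers that were left out after seeing the data, Cysltr1 was 2.06 higher (limma adjusted p = 0.0388) and Hrh4 was called too (1.16, adjusted p = 0.0152). The median difference of all genes was -0.13 in this comparison, and the values given are not relative to it.

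Hdc was 3.87 and 6.47 FPKM and Ltb4r1 8.0 and 5.48 FPKM in c-RelKO Treg, also above all WT Treg libraries. Neither was called (Hdc 1.61 ± 0.56, limma adjusted p = 0.0829, and Ltb4r1 1.46 ± 0.46, adjusted p = 0.057). With the run as a block Ltb4r1 (limma adjusted p = 0.0046), Hrh4 (0.85, adjusted p = 0.0077) and Alox5ap (1.74, adjusted p = 0.0178) were called higher and Ptger2 lower (-0.63, adjusted p = 0.0089), while Hdc was not (adjusted p = 0.0723). That fit called 5 of the 8 genes, Cysltr1 included, and 4803 of all 11532 genes. With size factors Ltb4r1 was called as well (1.64, limma adjusted p = 0.0291). Within runs, Hdc was 3.54 and 2.97 times its level in the WT library, Ltb4r1 6.41 and 4.56 times, and Hrh4 7.77 and 5.17 times, the last against WT values of 6 fragments each. Pparg, at 2.98 and 1.28 FPKM, overlapped WT Treg. Neutrophil markers were 34.4 and 1884 FPKM in the c-RelKO libraries against 3.61 to 17.0 in WT Treg. Mast cell or basophil markers summed to 5.86 and 18.3 FPKM in the c-RelKO libraries against 0.839 to 4.92 in WT Treg. The part of these other cells in the c-RelKO values was not tested.

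Loss of p65 alone left all 8 genes uncalled. By limma, 0 of 8 passed in either direction, where 0.0347% of all genes were called higher and 0.00867% lower, and 2 of 8 lay under 0.05 in unadjusted p, as did 1130 of all 11532 genes. A block for the run gave 1 call, Hrh4 (0.71, limma adjusted p = 0.0303), where it called 1017 of all genes. Hrh4 was 2.24, 2.02 and 0.778 FPKM in p65KO Treg, 1.61, 4.02 and 7.24 times the WT library of the same run, of which WT Treg 2 and 4 rest on 12 and 6 fragments. Its difference without the block was 0.80 ± 0.28 (limma adjusted p = 0.335, n = 3 and 4), and 1.30 (adjusted p = 0.0209) without WT Treg 1, p65KO Treg 3 and c-RelKO Treg 2. Ptger4 was 54.4, 55.6 and 51.5 FPKM, which is 1.04, 0.696 and 0.703 times WT of the same run. Hdc ranged from 0.152 to 5.57 FPKM over the 3 libraries and Alox5ap from 1.11 to 11.8 FPKM, both highest in p65KO Treg 3, the library with the most neutrophil and basophil markers of this group.

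Stimulated single-deficient Treg had 1 library per genotype, both of run 4, so their values have no replicate check. In the p65KO library Hdc was 2.61, Cysltr1 2.56, Ltb4r1 1.48 and Pparg 1.59 FPKM, against 2.68, 1.31, 0.704 and 1.73 FPKM in the WT Treg library of that run. The c-RelKO library had 2.96, 3.12, 0.808 and 0.485 FPKM of the same genes. Hrh4 was 0.381 and 0.983 FPKM in the p65KO and c-RelKO libraries. Ptger2 was 9.75 FPKM in p65KO and 19.9 FPKM in c-RelKO, on either side of the 14.3 FPKM of WT. All of these stood below the DKO libraries of the same run for Hdc, Hrh4, Cysltr1, Ltb4r1 and Pparg.

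Between the normal cell types, Ptger2 and Ptger4 were higher in Treg. Ptger4 was 24.1 and 20.4 FPKM in resting WT Tconv and Ptger2 3.40 and 3.71 FPKM, below all 4 WT Treg libraries. The differences were 1.60 ± 0.18 for Ptger4 (log2 difference ± SE, limma adjusted p = 8.5e-05, n = 4 and 2) and 1.61 ± 0.26 for Ptger2 (adjusted p = 0.0012). Pparg, at 0.144 and 0.178 FPKM in Tconv, was 1.04 ± 0.32 higher in Treg (limma adjusted p = 0.0466). These 3 of 8 were called higher and none lower, where 7.03% of all genes were called higher and 5.53% lower. The call of Pparg was lost without any 1 of WT Treg 2, 3 and 4 or of the Tconv libraries (limma adjusted p = 0.0601 to 0.24), and with no filter on low values (adjusted p = 0.0803).

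Ltb4r1 was 0.142 and 0.0815 FPKM in resting Tconv, below every WT Treg library, with a difference of 1.32 ± 0.46 (limma adjusted p = 0.0757). With the run as a block it was called (1.19, limma adjusted p = 0.0186), where 5287 of all 11532 genes were. Within runs it was 8.77 and 14.8 times higher in Treg, though the lower Tconv values rest on few fragments. Hrh4 was lower in Treg in both runs that held both cell types, at 0.434 and 0.284 times Tconv, but the difference over all libraries was 0.03 ± 0.32. Hdc, Cysltr1 and Alox5ap were at most 0.860 FPKM in resting Tconv, and none was called.

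In WT Treg, 3 h of stimulation moved none of the 8 genes past the threshold. By limma 0 of 8 were called, 0 lay under 0.05 in unadjusted p and 0 were called when runs were blocked. Of all genes 0% were called higher and 0% lower, 311 lay under 0.05 in unadjusted p and 0 were called with the block. The differences ranged from -0.65 for Ltb4r1 to 0.40 for Hdc. Ptger4 was 79.9 and 78.2 FPKM after stimulation, 1.07 times its level at rest in both runs.

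In Tconv, stimulation raised Ptger4. Ptger4 went from 24.1 and 20.4 FPKM to 41.2 and 32.5 FPKM, 1.71 and 1.59 times within runs, and was called higher (0.70 ± 0.21, limma adjusted p = 0.0485, n = 2 and 2). It was the 1 of 8 genes called higher and none was called lower, where 6.69% of all genes were called higher and 5.16% lower. The call was lost when any 1 of the 4 Tconv libraries was left out (limma adjusted p = 0.0764 to 0.344), with no filter on low values (adjusted p = 0.0647) and with size factors (adjusted p = 0.0769). Ptger2 went from 3.40 and 3.71 FPKM to 6.74 and 7.53 FPKM, 1.98 and 2.03 times within runs. It was not called without a block (0.84 ± 0.30, limma adjusted p = 0.0903) and was called with one (adjusted p = 0.0021), where 4966 of all 11532 genes were. Outside the TAT-Cre set, stimulated Tconv stayed below every WT Treg library in both receptors.

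In DKO Treg, stimulation raised Ptger2. It was 2.74 and 3.74 times its resting level within the 2 runs (1.59 ± 0.30, log2 difference ± SE, limma adjusted p = 0.0048, n = 2 and 2). This 1 of 8 was called higher and none lower, where 3.86% of all genes were called higher and 6.13% lower (445 and 707, or 610 and 392 with size factors). Without DKO Treg 2 or DKO Treg stim 2 the limma adjusted p was 0.0575 or 0.0586. With the run as a block Ptger4 was also called higher (0.59, limma adjusted p = 0.0063) and Hrh4 lower (-0.60, adjusted p = 0.0474), where 4851 of all 11532 genes were called. Hrh4 went from 44.5 to 28.7 FPKM and from 49.0 to 32.3 FPKM in the 2 runs, by a like ratio of 0.646 and 0.658. Ltb4r1 was 0.487 and 0.563 times its resting level, without a call (limma adjusted p = 0.321). The median difference of all genes was -0.19 here, and whether the responses of DKO and WT Treg differ was not tested.

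In the TAT-Cre set each group was 1 library, and the bounds given are the deposited confidence bounds of Cufflinks for that library alone. Foxp3 was 266 FPKM in the library labelled FoxP3 del and 86.7 FPKM in the Treg control, so that library is named by its label and no direction is drawn from it. Pparg was 1.39 FPKM (0.895 to 1.89) in the control Treg, 3.70 (2.98 to 4.41) in the library labelled FoxP3 del and 6.48 (5.57 to 7.40) in that labelled NFkB del. Hdc was 1.33 FPKM (0.936 to 1.73) in the Treg control and 4.78 (4.09 to 5.46) in the library labelled NFkB del. The bounds of both genes did not overlap between those 2 libraries.

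Hrh4 was 0.239 FPKM (0.0253 to 0.453) in the Treg control and 0.513 (0.228 to 0.797) in the library labelled NFkB del, with overlapping bounds. Cysltr1 was 0.380 FPKM in the control, 1.66 in the FoxP3 del library and 1.06 in that labelled NFkB del. Ltb4r1 was 0.268, 1.22 and 1.55 FPKM and Alox5ap 0.191, 2.35 and 3.88 FPKM in the same 3 libraries. Neutrophil markers were 1.16, 99.4 and 70.7 FPKM there, and their part in these values was not tested. None of the 4 libraries reached the levels of Hdc, Hrh4, Cysltr1, Ltb4r1 or Pparg seen in DKO Treg. Ptger2 was 15 FPKM in the Tconv control, 43.0 FPKM in the Treg control and 46.9 FPKM in the library labelled NFkB del, the last 2 above every WT Treg library outside this set. Ptger4 was 47.6, 82.2 and 83.0 FPKM in the same 3 libraries.

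**Figure D4:**
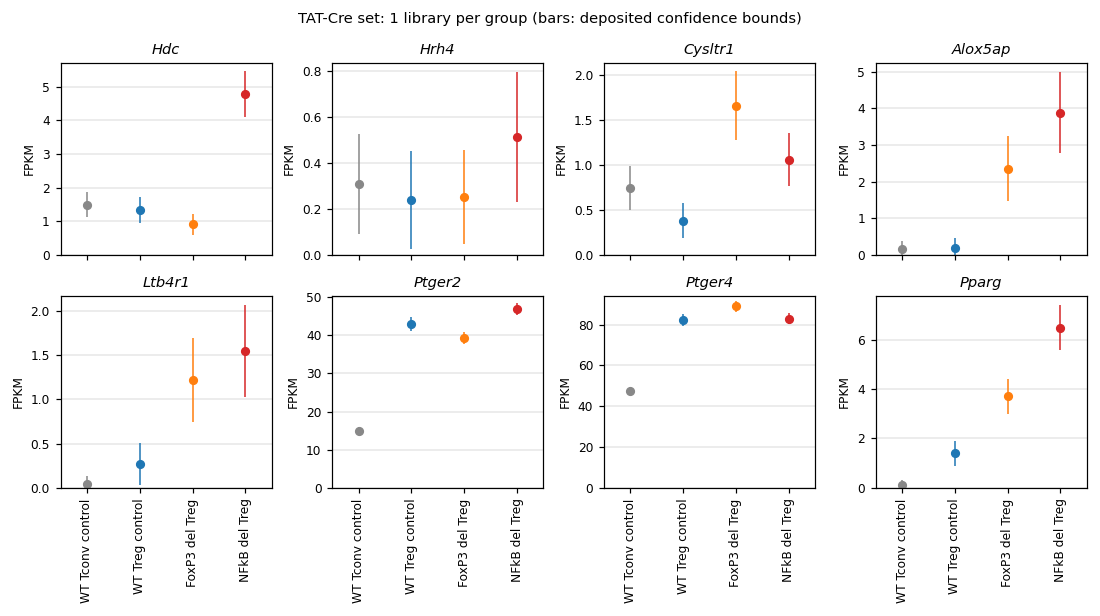
FPKM of the 8 genes in the 4 TAT-Cre libraries, 1 library per group, with bars for the deposited confidence bounds. Pparg and Hdc are highest in the library labelled NFkB del, at 6.48 and 4.78 FPKM, and Ptger4 differs little among the 3 Treg libraries (82.2 to 89.0 FPKM).

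The other genes of these pathways were looked at through fixed lists. Of the 10 histamine genes 3 were tested, and apart from Hdc and Hrh4 only Hrh2, a receptor that signals through cyclic AMP, was among them. Hrh2 was 0.571 to 6.70 FPKM over the 21 libraries and was called in no comparison by limma. Transcripts of the histamine-degrading enzyme Hnmt and of the receptors Hrh1 and Hrh3 stayed at or below 0.0986, 0.0628 and 0.0498 FPKM. The vesicular transporter Slc18a2 reached 0.921 FPKM at most.

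Of the 18 leukotriene genes 11 were tested, and in stimulated DKO against WT Treg 3 were called higher and none lower (16.6% and 16.2% of all genes), with a median difference of 0.34 (0.07 without the members) against -0.00018 for all genes. The third of them besides Cysltr1 and Ltb4r1 was Ggt1, a gamma-glutamyl transferase that converts leukotriene C4 to D4. Ggt1 was 14.6 and 12.9 FPKM in stimulated DKO Treg against 0.292 and 0.188 FPKM in WT Treg (3.58 ± 0.41, limma adjusted p = 3.5e-05, n = 2 and 2). At rest it was 16.7 and 16.8 FPKM in DKO Treg, 5.22 and 1.41 FPKM in c-RelKO Treg and 0.291 to 1.55 FPKM in WT Treg. Alox5, the 5-lipoxygenase itself, and Ltc4s, which makes leukotriene C4, reached at most 1.20 and 0.265 FPKM in any of the 21 libraries. Lta4h, the hydrolase that makes leukotriene B4, was 46.3 to 119 FPKM in all of them. Of the other receptors of the list, Cysltr2 was 1.25 to 14.4 FPKM over these libraries, with its highest level in p65KO Treg 3. It was 13.2 and 4.71 FPKM in resting DKO Treg against 5.09 to 8.17 in resting WT Treg. Stimulated DKO Treg had 9.52 and 2.87 FPKM of it and stimulated WT Treg 6.07 and 6.29, so DKO and WT overlapped in both states. Ltb4r2, Gpr17 and Oxgr1 were at most 0.126, 0.0118 and 0 FPKM.

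Of 26 prostaglandin genes 15 were tested, and in stimulated DKO against WT Treg 2 were called higher and 1 lower (16.6% and 16.2% of all genes), with a median of 0.23 (0.11 without the members). Ptgs2, the inducible cyclooxygenase, was 1.16 and 3.16 FPKM in stimulated DKO Treg against 0.0299 and 0.208 FPKM in WT Treg (1.43 ± 0.30, limma adjusted p = 0.0028). Of the 21 libraries, only those of stimulated DKO Treg reached the 1 FPKM of the filter for Ptgs2. It was thus tested only through the group where it is high, and nothing is read from its call or its place in the count. Cbr1, a carbonyl reductase that acts on prostaglandin E2, fell by 1.03 on the log2 scale (limma adjusted p = 0.0105), from 23.8 and 21.4 FPKM in WT to 10.1 and 11.1 FPKM in DKO. In the 21 libraries that entered the tests, Ptges3 was 40.7 to 92.3 FPKM, and the prostaglandin D2 synthases Hpgds and Ptgds were at most 3.19 and 0.0803 FPKM. Ptger1, another prostaglandin E2 receptor, was 9.69 to 51.4 FPKM in these libraries and was called in no comparison by limma. Ptgdr2, a prostaglandin D2 receptor known from type 2 T cells and listed here under its older symbol Gpr44, was at most 0.171 FPKM.

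Of 21 genes of PPAR signalling 16 were tested, of which 6 were called higher and 3 lower in stimulated DKO against WT Treg (16.6% and 16.2% of all genes), with a median of 0.69 (0.63 without Pparg). Rxra, the partner of Pparg in DNA binding, was 21.4 and 24 FPKM against 5.67 and 6.83 FPKM (1.71 ± 0.27, limma adjusted p = 0.0004). Higher too were the target genes Pdk4 (1.87, limma adjusted p = 0.0013), Angptl4 (1.29, adjusted p = 0.0109), Fabp5 (0.999, adjusted p = 0.001) and Plin2 (0.95, adjusted p = 0.0353). Lower were the cholesterol exporter Abcg1 (-1.43, limma adjusted p = 0.0093), the corepressor Ncor1 (-0.46, adjusted p = 0.0315) and Rxrb (-0.45, adjusted p = 0.032). Pdk4 was 1.14 and 5.31 FPKM in stimulated DKO Treg and at most 0.017 FPKM in the 17 libraries that were not DKO. Pdk4 thus passed the filter of 1 FPKM only through DKO libraries. Nothing is read from its call or its place among the 6. Plin2, which coats lipid droplets, was 39.9 and 22.6 FPKM in resting DKO Treg and 12.2 and 9.06 FPKM after stimulation.

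**Figure D5:**
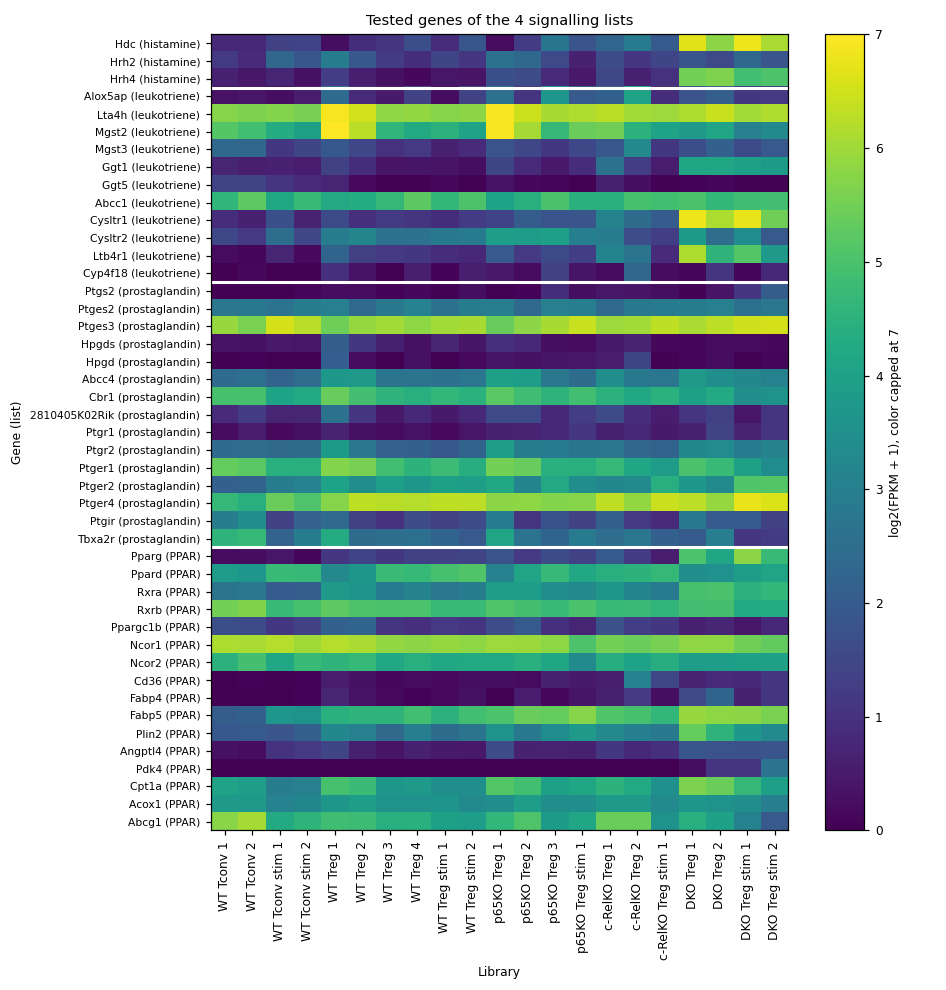
Levels as log2(FPKM + 1), with the color capped at 7, of the 45 tested genes of the histamine, leukotriene, prostaglandin and PPAR lists (rows) in 21 libraries (columns). Bright cells in the last 4 columns, the DKO libraries, mark Hdc, Hrh4, Cysltr1, Ltb4r1 and Pparg. Lta4h, Ptges3 and Ptger4 are bright in nearly all columns.

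Of 11 genes of type 2 lymphocytes, 3 were called higher in stimulated DKO against WT Treg and none lower (16.6% and 16.2% of all genes). Their median difference was 1.05, against -0.00018 for all genes. They were the cytokine genes Il13 (11.39 ± 1.03, limma adjusted p = 5.0e-06), Il5 (10.32 ± 0.90, adjusted p = 3.9e-06) and Il4 (9.72 ± 1.07, adjusted p = 2.5e-05). Il5 was 412 and 239 FPKM in resting DKO Treg and 4799 and 2527 FPKM after stimulation. Hdc and Cysltr1 had DKO levels that overlapped between rest and stimulation.

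The lists were counted in the other comparisons too. Of all genes, limma called 1.62% higher and 8.98% lower in resting c-RelKO against WT Treg. The shares were 7.03% and 5.53% between WT Treg and Tconv, and 3.86% and 6.13% in stimulated against resting DKO Treg. They were 0.0347% and 0.00867% in p65KO Treg, and 0% and 0% in stimulated WT Treg. In resting c-RelKO against WT Treg, limma called Cysltr1, Ggt1 (1.20, adjusted p = 0.0466) and Mgst3 (1.20, adjusted p = 0.0410) higher among 11 leukotriene genes and none lower. Their median was 0.79 (0.15 without the members) against -0.13 for all genes. Mgst3 was 2.73 FPKM in c-RelKO Treg 1 and 8.79 in c-RelKO Treg 2, against 0.993 to 2.83 in WT Treg. Both Mgst3 and Ggt1 thus overlapped WT Treg. The lists of histamine and prostaglandin genes had no call in c-RelKO Treg, that of PPAR signalling had 1 higher and 1 lower, and that of type 2 lymphocytes had 2 higher, Il4 and Il13. Between WT Treg and Tconv, 1 leukotriene gene was called higher (the receptor Cysltr2, 1.5, limma adjusted p = 0.0446) and 1 lower, 2 prostaglandin genes higher (Ptger2 and Ptger4) and 1 lower (the prostacyclin receptor Ptgir, -1.64), and 3 PPAR genes higher and 2 lower. The type 2 list had 4 called higher there, Gata3, Il1rl1, Ccr4 and Ccr8, and 4 in stimulated against resting DKO Treg, Il4, Il5, Il13 and Areg, with none lower in either. In p65KO Treg and in stimulated WT Treg no gene of the 5 lists was called by limma.

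Genes whose levels followed each member most closely were found by Pearson correlation of log2(FPKM + 1) over the 21 libraries, among 10393 other genes. The libraries share groups, so r is also given over the 17 libraries that were not DKO. Hdc was nearest to Sv2c (r = 0.963, and 0.713 without DKO), Cysltr1 (0.957, 0.599) and Dlg2 (0.953, 0.451). Hrh4 was nearest to Itga1 (0.964, 0.817), Dlg2 (0.964, 0.354) and Gnai1 (0.964, and -0.022 without DKO). Cysltr1 was nearest to Dlg2 (0.967, 0.679), Ifitm2 (0.967, 0.799) and Igfbp7 (0.961, 0.724). Ltb4r1 was nearest to Sept8 (0.949, 0.864), Cysltr1 (0.946, 0.776) and Hc (0.942, 0.925), and Pparg to Nipal4 (0.971, 0.887), Ptpn3 (0.967, 0.756) and Cxcl3 (0.965, 0.563).

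The genes that did not follow the DKO libraries had other neighbours. Alox5ap was nearest to Tgfbi (r = 0.909, and 0.934 without DKO), Lyz2 (0.906, 0.946) and Fcgr2b (0.884, 0.922), of which Lyz2 is on the list of monocyte, macrophage or dendritic cell markers. Ptger2 was nearest to Lclat1 (0.871, 0.872), Plscr1 (0.867, 0.804) and Zfp862 (0.861, 0.882). Ptger4 was nearest to Rgs1 (0.910, 0.916), Samsn1 (0.900, 0.890) and Il2ra (0.899, 0.882), which is on the list of Treg markers. Ptger2 and Ptger4 had r = 0.804 with each other, and 0.768 without the DKO libraries.

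Ordered by group mean, a DKO group was first for every gene but Alox5ap. For Ptger2 and Ptger4 it was the stimulated group, and resting DKO came after resting WT Treg. The genes were chosen with the resting DKO difference known, and the share of all genes with a DKO group first was not counted. Nothing is therefore read from the place of the DKO groups. For Hdc the order was stimulated DKO, resting DKO and c-RelKO Treg, and the 2 DKO groups overlapped while resting DKO and c-RelKO did not. For Cysltr1 and Ltb4r1 resting DKO came before stimulated DKO, with overlap, and c-RelKO Treg followed without overlap. Hrh4 had resting DKO above stimulated DKO without overlap, then p65KO Treg. For Ptger2 and Ptger4, WT Tconv and stimulated Tconv were the lowest groups and did not overlap each other. For Alox5ap c-RelKO and p65KO Treg came first, and they overlapped.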

How the data were processed

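RNA of mouse T cells was sequenced in 25 libraries. Per the submitters' processing notes the tools were bcl2fastq, TopHat and Cufflinks, with the build mm9, and the sources used here do not give their versions. The authors deposited 1 table per library with a gene-level FPKM and its confidence bounds. Counts were not used here. Implied fragments, computed from the confidence bounds, gave 15.4 to 52.8 M per library, and their number limits the precision of low values. The 250 symbols whose status was not OK in every library were left out and 22985 stayed, of which 181 had several entries whose FPKM were summed.

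Values were tested as log2(FPKM + 1) with limma 3.58.1 (R 4.3.3) and a trend of the variance on the mean level, on the 11532 genes that reached 1 FPKM in 2 or more of 21 libraries. All 10 groups shared 1 estimate of the spread (11 residual degrees of freedom), with Benjamini-Hochberg adjustment over all genes and a threshold of 0.05. The 4 TAT-Cre libraries entered no test. Groups came from the sample titles. The fit was tested on simulated data. By rule, all members were named, up to 8 genes of each pathway list called in stimulated DKO against WT Treg, and for each member the 3 genes with the highest correlation over 21 libraries. Other listed genes, such as the enzymes with low levels and those called in other comparisons, were named after their values were seen. The members and lists were chosen with earlier results of these data known. Alternatives were another pseudocount, filters, size factors, blocks for the run or the replicate number, the 2 groups alone, each library left out, and, added after seeing the data, 3 resting libraries with RNA of other cells (WT Treg 1, p65KO Treg 3 and c-RelKO Treg 2) left out.

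Runs are stretches of consecutive library numbers, which the labels do not explain. Deviations from group means correlated at 0.432 on average over 51 pairs of libraries of the same run and at -0.209 between runs. Same-numbered libraries of different runs correlated at -0.119 over 25 pairs, so the numbers were not taken to pair samples.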

Additional observations from a re-analysis of the deposited data

Results flagged for a closer look

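Ltb4r1 was 3.81 FPKM in WT Treg 1, apart from the 1.5, 1.25 and 1.20 FPKM of WT Treg 2, 3 and 4. Its gap to the nearest library, divided by the range of the 4, exceeded Dixon's critical value for 4 samples. Each of the 8 genes was looked at in this way in the WT Treg group, and chance flags about 1 in 20 groups. WT Treg 1 also had 81.5 FPKM of monocyte, macrophage or dendritic cell markers and 58.8 FPKM of B cell markers, and their part in the level was not tested.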

How the results depend on the processing

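Hdc, Hrh4, Cysltr1, Ltb4r1 and Pparg were called higher in stimulated DKO than in stimulated WT Treg under every alternative run. Of the tested values under alternatives, 629 kept direction and call, 43 changed sign, 21 gained and 20 lost the call. The cause was not tested. Values near 0 changed sign as follows. With a pseudocount of 0.1, Hrh4 in Treg against Tconv was -0.15 and Alox5ap in stimulated Tconv -0.0013. With size factors, Ptger2 in p65KO was -0.060, Ptger4 in c-RelKO 0.16 and Hrh4 in stimulated Tconv 0.0036. With the run block, Hrh4 in Treg against Tconv was -0.32, and in stimulated WT Treg Hdc was -0.22 and Hrh4 0.18. With the replicate block, Ltb4r1 in p65KO was -0.012, Ptger4 in c-RelKO 0.0091, Hdc in Treg against Tconv -0.43 and Ptger4 in resting DKO 0.018. Without WT Treg 1, p65KO Treg 3 and c-RelKO Treg 2, Hrh4 in Treg against Tconv was -0.20, Hdc and Ptger2 in p65KO were -0.49 and -0.037, Ptger4 in c-RelKO was 0.062 and Hrh4 in stimulated WT Treg 0.058. The replicate block called Hdc in c-RelKO (2.25, limma adjusted p = 0.0072) and Ltb4r1 there (1.25, adjusted p = 0.0192) and in Treg against Tconv (1.53, adjusted p = 0.0069), and it changed no other call of the 8 genes.

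All genes called in p65KO numbered 5, and 0 with a pseudocount of 0.1, size factors, the 2 groups alone or a filter at 5 FPKM, 3 without a filter, 1017 with the run block and 488 without the 3 libraries. The run block gave 7230 calls in stimulated DKO against WT (3774 without it), 4803 in c-RelKO (1223), 5287 in Treg against Tconv (1449), 4966 in stimulated Tconv (1367) and 4851 in stimulated DKO against resting DKO (1152). The replicate block gave 3264 in c-RelKO, 3051 in Treg against Tconv, 3123 in stimulated WT Treg (0 without), 2404 in stimulated Tconv and 2116 in stimulated against resting DKO. The 2 groups alone gave 85 in c-RelKO, 373 in Treg against Tconv and 3991 in stimulated Tconv, and leaving out the 3 libraries gave 587 in c-RelKO and 2443 in Treg against Tconv.

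With each library left out in turn, the calls ranged from 0 to 21 in p65KO, 438 to 1255 in c-RelKO, 355 to 2314 in Treg against Tconv, 398 to 607 in stimulated Tconv, 1903 to 2765 in stimulated DKO against WT and 193 to 803 in stimulated against resting DKO. Sign changes occurred in p65KO for Hdc (-0.25 to 1.003), Ltb4r1 (-0.10 to 0.36) and Ptger2 (-0.13 to 0.41), in c-RelKO for Ptger4 (-0.26 to 0.19) and Pparg (-0.061 to 0.74), and in Treg against Tconv for Hdc (-0.023 to 0.44) and Hrh4 (-0.20 to 0.17). In stimulated WT Treg they were Hdc (-0.10 to 0.90), Hrh4 (-0.31 to 0.058), Cysltr1 (-0.27 to 0.010) and Alox5ap (-1.05 to 0.060), and in resting DKO Ptger4 (-0.24 to 0.18). In stimulated Tconv they were Hrh4 (-0.22 to 0.19), Cysltr1 (-0.10 to 0.95), Alox5ap (-0.13 to 0.15) and Pparg (-0.088 to 0.20). In stimulated DKO they were Alox5ap against WT (-0.19 to 0.92), and Hdc (-0.22 to 0.70) and Cysltr1 (-1.01 to 0.27) against resting DKO. Where a group was left with 1 library, that library was assumed to vary like the other groups.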
